A study of Sus scrofa with 20 samples.

Results

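The genes that start the complement cascade and cut its central protein C3 were compared between backfat and liver of the Nanchukmacdon pig. The list held 10 genes, chosen by name for their place in the pathway: C1QA, C1QB, C1QC, C1R, C1S, C2, C3, MASP1, MASP2 and CFB. Of these, 8 had a row among the 31907 gene models of the count table, and the same 8 passed the filter on low counts. C1R and C1S had no row under their symbol or Ensembl identifier and were not analysed here.

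The series profiled backfat, the fat layer under the skin, and liver by WGBS and RNA-seq, to find genes by which these tissues differ. The members were measured in the RNA-seq libraries, 5 of backfat and 5 of liver. All of the animals were boars labelled as wild type and normal, aged 22 months by the labels, although the methods of the study give another average age, and no treatment was named for either tissue. Nothing in the labels ties a replicate to an animal. Libraries are named by tissue and by the number in the column names (65, 67, 69, 71 and 72), taken here as that of the boar.

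Complement is a set of blood proteins that mark and lyse microbes and clear dying cells. In the classical pathway C1q, built from chains A, B and C, binds immune complexes and carries the proteases C1r and C1s. In the lectin pathway, sugar-binding proteins carry the proteases MASP-1 and MASP-2. Both routes cut C4 and C2 into a convertase that splits C3, and the alternative pathway forms a second C3 convertase with factor B, the product of CFB. Most circulating complement proteins are made by hepatocytes, whereas C1q is known mainly as a product of macrophages and dendritic cells, so the members differ in their usual cell of origin.

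The libraries held between 43820042 and 61772737 assigned counts. Levels are given as CPM, read counts divided by a library size scaled by TMM, a factor that balances the bulk of genes between libraries. The 8 hepatocyte markers summed to between 33061 and 125946 CPM in liver and to between 171 and 606 CPM in backfat. The 6 adipocyte markers summed to between 9353 and 12919 CPM in backfat and to between 10.98 and 15.7 CPM in liver, so each tissue carried the markers of its label. The liver library of boar 67 had the lowest hepatocyte sum, 33061 CPM against 108209 CPM or more in the other livers, and 44.5% of its counts fell on mitochondrial genes. The backfat library of boar 69 had the highest hepatocyte sum of its tissue, 606 CPM against at most 216 CPM in the others. Most of each backfat sum was APOA1, with 482 CPM in boar 69 and 167 to 213 CPM in the others. ALB had 36.4 CPM in that library against at most 0.351 CPM in the other backfats, and AHSG 32.2 CPM against at most 0.0858 CPM. The members' values that rest on these libraries are given with and without them.

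All 8 measured members were higher in every liver library than in any backfat library. Calls required both an edgeR quasi-likelihood adjusted p no higher than 0.05 and a log2 fold change of 2 or more. By this rule C2, C3, CFB, MASP1 and MASP2, 5 of 8, were called higher in liver, none was called higher in backfat, and the 3 C1q genes passed the adjusted p but not the fold threshold. Over all 16275 genes tested, 11.2% were called higher in liver and 11.1% higher in backfat. By the adjusted p alone, 27.0% were higher in liver and 28.0% in backfat, and in 42.6% of genes the CPM of the tissues did not overlap. The log2 fold changes of liver over backfat fell into separate ranges, 1.05 to 1.29 for the C1q genes and 3.96 to 8.995 for the 5 other genes.

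**Figure D1:**
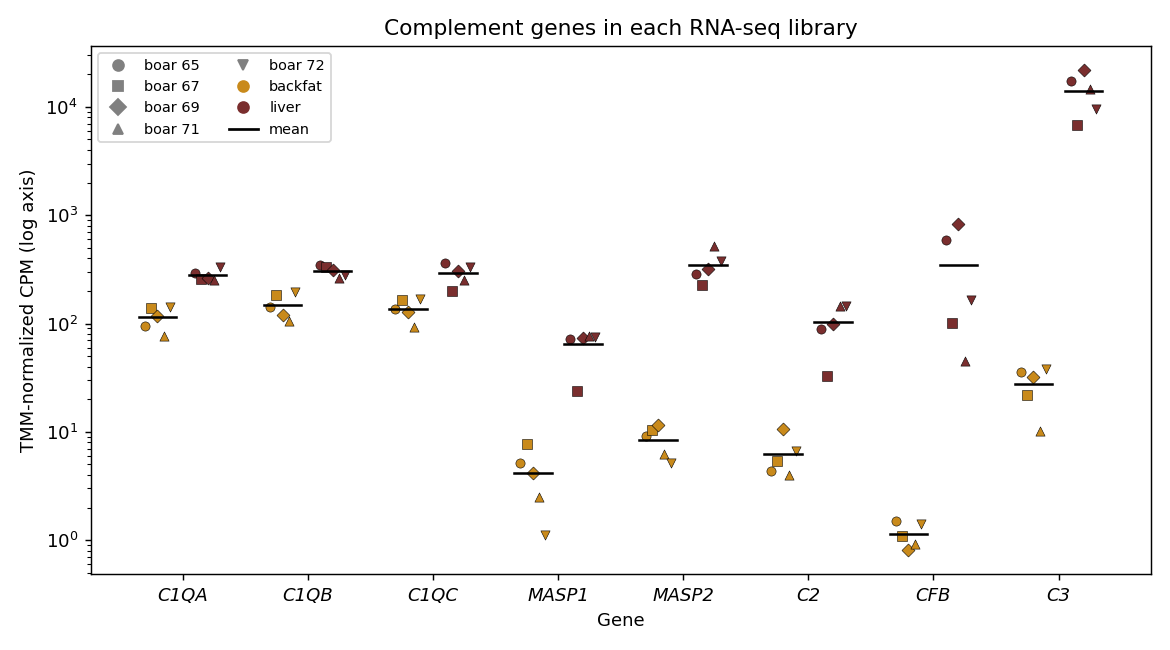
TMM-normalized CPM (log axis) of the 8 measured complement genes in each library, with colour for the tissue, marker shape for the boar and a bar for the mean of 5 libraries. Liver points lie above backfat points for every gene, by the smallest margin for C1QC and by the largest for C3, and the CFB points of liver spread from 45.3 to 826 CPM.

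The C1q genes encode the 3 chains of the recognition molecule and lie within 19818 bases of chromosome 6 in RefSeq's annotation of Sscrofa11.1, all on the plus strand, in the order C1QA (80586259 to 80589213), C1QC (80592591 to 80597464) and C1QB (80601680 to 80606076). C1QA had 95.9, 140, 116, 77.2 and 144 CPM in the backfat of boars 65, 67, 69, 71 and 72, and 296, 258, 261, 253 and 332 CPM in their livers. Boar 71 was lowest in both tissues and boar 72 highest in both, and the highest backfat value stayed below the lowest liver value. The log2 fold change of liver over backfat was 1.29 (SE 0.21), a 2.44-fold difference with a 95% interval from 1.78 to 3.35, and the adjusted p by edgeR was 0.000199.

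C1QB had 142, 183, 120, 106 and 195 CPM in backfat and 347, 335, 313, 264 and 280 CPM in liver, in the same order of boars. Boar 71 was again lowest in both tissues, and the tissues did not overlap. C1QB differed by 1.05 on the log2 scale (SE 0.21) and 2.07-fold, with an edgeR adjusted p of 0.00112. C1QC had 135, 166, 128, 92.1 and 167 CPM in backfat and 360, 201, 307, 251 and 330 CPM in liver. Its lowest liver value, that of boar 67, came closest to the backfat range among all members. C1QC differed by 1.08 on the log2 scale (SE 0.23) and 2.11-fold, with an edgeR adjusted p of 0.00155.

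The differences of the C1q genes depended on the scaling. With library size alone and no TMM factors, the median log2 fold change over all genes moved to -0.71, and the values of C1QA, C1QB and C1QC became 0.58, 0.34 and 0.38. Their edgeR adjusted p-values were then 0.0411, 0.236 and 0.230, so 1 of the 3 passed. Measured from that median, the same values were 1.29, 1.05 and 1.09. With both the backfat library of boar 69 and the liver library of boar 67 left out, the 3 genes stood at 1.32, 0.95 and 1.16, each with an edgeR adjusted p of at most 0.00355.

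The C1q genes were higher in liver together, and their upstream sequences are shown for that reason, to let the 3 neighbouring starts be compared. Each is the 250 bases before the RefSeq gene start, plus strand, 5′ to 3′, for C1QA at chr6:80586009-80586258, for C1QC at chr6:80592341-80592590 and for C1QB at chr6:80601430-80601679. Capitals mark matches to GAGGAA, a core that the macrophage factor PU.1 can bind, read on either strand (TTCCTC on the printed strand).
C1QA: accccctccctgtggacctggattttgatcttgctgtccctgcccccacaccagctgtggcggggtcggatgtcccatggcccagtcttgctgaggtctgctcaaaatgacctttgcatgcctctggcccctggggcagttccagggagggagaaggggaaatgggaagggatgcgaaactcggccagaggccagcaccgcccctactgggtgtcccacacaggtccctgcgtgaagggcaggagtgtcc
C1QC: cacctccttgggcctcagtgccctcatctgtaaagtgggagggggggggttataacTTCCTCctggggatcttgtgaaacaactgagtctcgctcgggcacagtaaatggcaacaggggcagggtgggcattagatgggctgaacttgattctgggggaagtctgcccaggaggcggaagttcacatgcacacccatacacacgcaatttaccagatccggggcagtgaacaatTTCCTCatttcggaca
C1QB: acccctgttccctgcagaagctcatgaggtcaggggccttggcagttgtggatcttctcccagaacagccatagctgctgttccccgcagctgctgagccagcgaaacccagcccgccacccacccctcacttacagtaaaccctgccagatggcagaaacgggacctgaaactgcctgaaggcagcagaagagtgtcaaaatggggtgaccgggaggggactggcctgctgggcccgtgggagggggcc

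C1QC held 2 matches, at bases -194 to -189 and -16 to -11 from its start, while the windows of C1QA and C1QB held none. Such a match stood in 22.0% of the 19569 windows of equal length before RefSeq genes, so it is a description of these letters, and binding was not analysed here. Each of the 3 C1q windows held 6 CpG sites, the sequence at which DNA is methylated, against a median of 12 over all windows. The other motifs searched on both strands, TATAAA, TTGCNNAA (C/EBP), GTTAAT (HNF1), TTCNNNGAA (STAT), GGGANTTTC (NF-kB) and TTTCNNTTT (ISRE), had no match in these windows and stood in 9.77%, 8.22%, 5.91%, 6.12%, 1.05% and 10.3% of all windows.

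The proportions of the C1q chains were compared within each library. Ratios were formed from counts per exon length on the log2 scale, so they do not depend on library scaling, and each of 6 ratios was put to an exact permutation test, two-sided and with every arrangement of the libraries. C1QC over C1QB averaged 0.86 ± 0.12 (SD, n = 5) across the backfat libraries and 0.86 ± 0.37 (SD, n = 5) in liver, differing by -0.0010 (exact permutation p = 0.992, adjusted p = 0.992). In liver, boar 67 stood low at 0.23 and the other boars lay between 0.90 and 1.21. Without that library the difference turned to 0.16, and without it and the backfat library of boar 69 to 0.20 (exact adjusted p = 0.0686). C1QA over C1QB averaged -0.05 ± 0.19 in backfat and 0.19 ± 0.24 in liver, a difference of 0.24 (exact permutation p = 0.111, adjusted p = 0.133). The backfat of boar 69 had the highest ratio of its tissue at 0.28, and without it the difference was 0.32, with an exact adjusted p of 0.0476.

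Since C1q is known as a macrophage product, its summed level was set against 7 macrophage markers (CD68, CD163, CSF1R, CD14, AIF1, MSR1 and MARCO). These summed to between 163 and 290 CPM in backfat and to between 894 and 1441 CPM in liver. The log2 ratio of C1q to this list was 1.39, 1.66, 1.50, 1.53 and 1.89 in backfat and 0.71, 0.44, 0.63, -0.22 and 0.14 in liver. The tissues did not overlap, and the ratio was 2.39-fold higher in backfat (exact permutation p = 0.00794, the smallest this design can give, adjusted p = 0.0476). CD14, a receptor for bacterial lipopolysaccharide, had the highest CPM of the 7 in every liver library, with 397 to 1063 CPM in liver against 21.8 to 40.3 CPM in backfat. Without CD14, a choice made after its values were seen, the difference turned to 0.12 in favour of liver (exact permutation p = 0.587, adjusted p = 0.705) and the tissues overlapped. With CD14 kept, the ratio was lower in liver in 5 of 5 boars. The call was lost without any single one of 5 libraries, with exact adjusted p-values of up to 0.0952. The tissues still did not overlap there, and the differences ran from -1.35 to -1.20. With fewer libraries the smallest p of this test is larger, and the adjusted value rests partly on the other ratios. The lost calls therefore cannot show a weaker difference. Of the 7 markers, CD14 and MARCO were called higher in liver. By the adjusted p alone, CD163 (2.59-fold, edgeR adjusted p = 0.00198) and AIF1 (3.23-fold, edgeR adjusted p = 0.000141) were also higher in liver. CD68, CSF1R and MSR1 did not pass the adjusted p. In bulk tissue, fewer cells of a type and less RNA per cell cannot be told apart, and the part of macrophage number in the C1q difference was not tested.

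**Figure D2:**
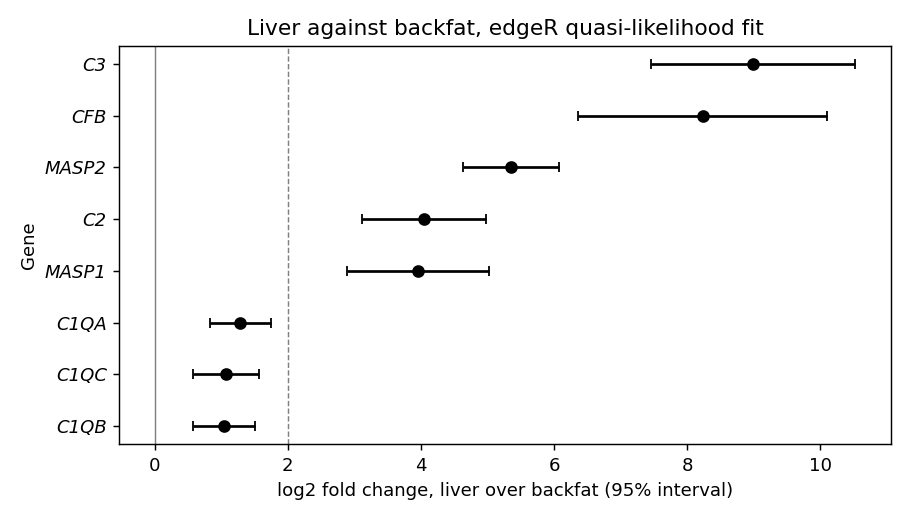
Log2 fold change of liver over backfat for the 8 measured genes, with 95% intervals from the edgeR quasi-likelihood fit. The solid line marks no difference and the dashed line the threshold, a log2 fold change of 2. The C1q intervals lie between these lines, from 0.58 to 1.74. Those of the other 5 genes lie above the threshold.

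The lectin-pathway proteases were both called higher in liver. MASP1, whose product starts activation of the lectin complex, lies on the minus strand of chromosome 13 (124938469 to 125028440) and has 11 RefSeq transcripts, which the gene count does not separate. It had 5.21, 7.67, 4.15, 2.51 and 1.12 CPM in backfat and 71.8, 24.0, 73.8, 76.6 and 75.1 CPM in liver. In liver boar 67 stood alone below the rest, and in backfat boar 72 was lowest. The log2 fold change was 3.96 (SE 0.49), 15.5-fold, with an edgeR adjusted p of 2.26e-05.

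MASP2, whose product cuts C4 and C2, lies on the minus strand of chromosome 6 (71224637 to 71243041). It had 9.09, 10.3, 11.5, 6.20 and 5.18 CPM in backfat and 286, 226, 317, 523 and 381 CPM in liver. Boar 67 was lowest in liver and boar 71 highest, and the tissues lay far apart. The log2 fold change was 5.36 (SE 0.33), 40.9-fold with a 95% interval from 24.7 to 67.8, and the edgeR adjusted p was 6.71e-08.

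MASP2 over MASP1 was thus not the same in both tissues. The log2 ratio per exon length averaged 3.32 ± 0.68 (SD, n = 5) across the backfat libraries and 4.56 ± 0.51 (SD, n = 5) in liver, differing by 1.25 (exact permutation p = 0.0238, adjusted p = 0.0476). The tissues overlapped, since backfat of boar 72 stood at 4.28 and liver of boar 65 at 4.07. The ratio was higher in liver in 5 of 5 boars. An exact sign-flip test over the 5 pairs can give no p below 0.0625, so it could not pass, and its adjusted p was 0.125. Leaving out any single one of the backfat libraries of boars 65, 67, 69 and 71 lost the unpaired call. So did any single one of the liver libraries of boars 65, 67, 71 and 72. Exact adjusted p-values then reached 0.0952 and differences ran from 1.04 to 1.37. Fewer libraries also make the smallest p of the unpaired test larger.

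C2 and CFB encode related serine proteases that supply the catalytic part of the classical and lectin convertase and of the alternative convertase. They stand head to tail on the plus strand of chromosome 7, C2 at 24020590 to 24034042 and CFB at 24034077 to 24040523. The 34 bases that separate the RefSeq models, chr7:24034043-24034076, are shown for their shortness, as all of the sequence between these neighbours.
C2 to CFB: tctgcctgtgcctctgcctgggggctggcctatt

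C2 had 4.36, 5.35, 10.7, 3.96 and 6.66 CPM in backfat and 89.6, 32.5, 98.3, 146 and 146 CPM in liver. The backfat of boar 69, which also had the most hepatocyte marker RNA of its tissue, was highest there, and the liver of boar 67, with the least, was lowest. C2 differed by 4.05 on the log2 scale (SE 0.43) and 16.5-fold, with an edgeR adjusted p of 5.36e-06. Without the backfat library of boar 69 the log2 fold change was 4.33, and without that library and the liver library of boar 67 it was 4.56.

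CFB had 1.50, 1.10, 0.807, 0.919 and 1.41 CPM in backfat, from 48 to 133 counts per library, and 592, 101, 826, 45.3 and 164 CPM in liver. Its livers were split widely, with boars 65 and 69 high and boar 71 lowest, and its backfat values spread less than its liver values. The log2 fold change was 8.23 (SE 0.86), 300.3-fold with a 95% interval from 82.3 to 1096, and the edgeR adjusted p was 5.11e-06. Without the liver library of boar 69 the log2 fold change was 7.62, a move of 1.53-fold on the linear scale, and the gene was still called.

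The highest liver library of CFB stood 18.2-fold above the lowest. Among 8466 genes with a liver mean of at least 10 CPM, the median of this ratio was 1.87 and only 0.437% of genes had a wider one. The other members spread less in liver, by 1.31-fold for C1QA, 1.32-fold for C1QB, 1.80-fold for C1QC, 2.32-fold for MASP2, 3.19-fold for MASP1, 3.22-fold for C3 and 4.50-fold for C2. In backfat CFB ran from lowest to highest over 1.86-fold, and the widest member there was MASP1 with 6.88-fold. Among 8454 genes with a backfat mean of at least 10 CPM the median was 1.54, and 24.8% of them were wider than CFB. CFB and MASP1 averaged 1.15 and 4.13 CPM in backfat, below that cutoff, so these genes were not of like level.

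Acute phase and hepatocyte markers did not share one order among these livers. Of 7 acute phase markers 4 had a row, and their sum of 1983, 5170, 3571, 4444 and 2866 CPM in the livers of boars 65, 67, 69, 71 and 72 was mostly ITIH4 (1403 to 4342 CPM), highest in boar 67. LBP and SOCS3 were instead highest in boar 69, the liver with the most CFB. LBP had 942 CPM there against 393 to 462 CPM in the others, and SOCS3 had 50.3 CPM against 14.6 to 31.3 CPM. Both were lowest in boar 65, where CFB had 592 CPM. CRP was highest in boar 71, the liver with the least CFB, at 621 CPM. In boars 65, 67, 69 and 72 CRP had 172, 385, 230 and 176 CPM. Among the hepatocyte markers, TF, which encodes transferrin, had 19561, 3629, 27391, 6078 and 11328 CPM and FGB, a fibrinogen chain, had 11383, 3871, 15062, 6250 and 6901 CPM. Both were highest in boars 69 and 65, as CFB was, and so were AHSG and SERPINC1. ALB, APOA1 and TTR were higher in boars 71 and 72 than in boars 65 and 69, and APOB followed neither order. The part of any of these in the CFB spread was not tested.

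**Figure D3:**
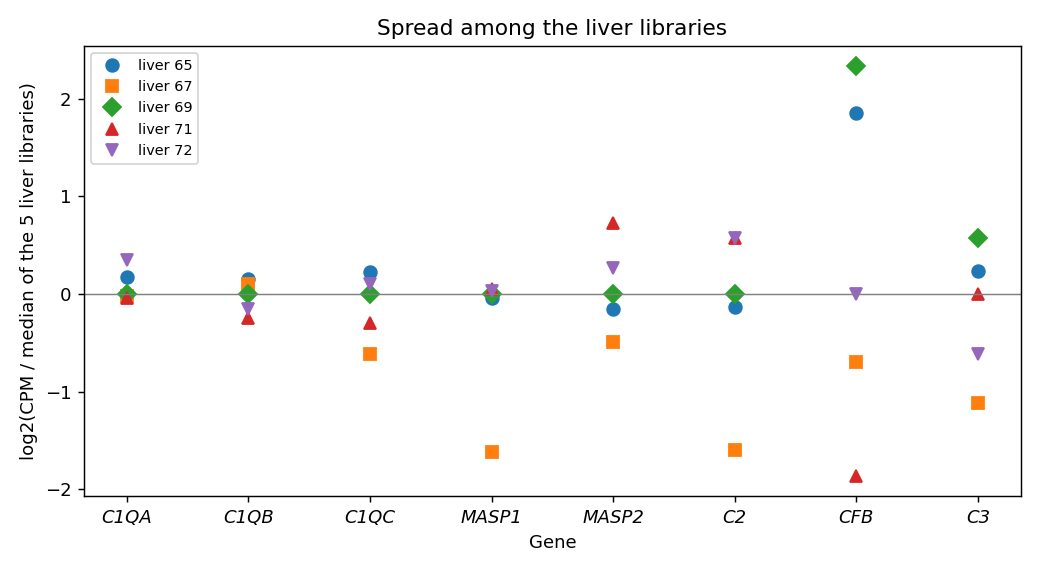
Level of each measured complement gene in the 5 liver libraries as the log2 ratio of its CPM to the median liver library, with 1 marker per boar. Markers lie close to 0 for C1QA and C1QB, boar 67 lies low for C1QC, MASP1, C2 and C3, and for CFB boars 65 and 69 lie high and boar 71 low.

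C2 and CFB therefore moved by unlike amounts between the tissues although they are neighbours. The log2 ratio of C2 to CFB per exon length was 2.57, 3.31, 4.74, 3.13 and 3.26 in backfat and -1.70, -0.61, -2.04, 2.72 and 0.86 in liver. Backfat was above 0 in every library, and liver was below 0 in boars 65, 67 and 69 and above 0 in boars 71 and 72, where the value of boar 71 overlapped backfat. The mean difference was -3.56, with an exact permutation p of 0.0159 and an adjusted p of 0.0476. The ratio was lower in liver in 5 of 5 boars, and the paired sign-flip test, which cannot pass with 5 pairs, gave an exact adjusted p of 0.125. The unpaired call was lost without any single one of 6 libraries, with differences from -3.81 to -3.17 and exact adjusted p-values of up to 0.0952. Fewer libraries also make the smallest p of the unpaired test larger. Without the liver library of boar 71 the difference was -4.27. The exons counted for CFB total 6007 bases against 2636 in RefSeq, and whether that model reaches into C2 was not tested.

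C3, the protein on which all 3 pathways meet, is encoded on the plus strand of chromosome 2 (72431470 to 72471622), with 41 exons in its reference transcript. It had 35.8, 21.8, 32.0, 10.3 and 38.2 CPM in backfat and 17355, 6809, 21929, 14738 and 9638 CPM in liver. Boar 71 was lowest in backfat, boar 67 was lowest in liver, and the tissues lay farther apart than for any other member. The log2 fold change was 8.995 (SE 0.70), 510.3-fold with a 95% interval from 176 to 1476, and the edgeR adjusted p was 4.17e-07.

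C3 took between 0.491% and 1.92% of all counts in liver, and between 0.00126% and 0.00514% in backfat. In backfat these were 570 to 3174 counts per library, so C3 was detected in every backfat library. Its order among the backfat libraries was not that of the hepatocyte markers, since boar 69 had the highest marker sum and boar 72 the highest C3. Without the backfat library of boar 69 and the liver library of boar 67 together, the log2 fold change of C3 was 9.23. The log2 ratio of C3 to CFB was 4.67 ± 0.67 (SD, n = 5) across the backfat libraries and 6.17 ± 1.45 (SD, n = 5) in liver, differing by 1.50 that did not pass (exact permutation p = 0.0476, adjusted p = 0.0714). It passed at 1.70 without the backfat library of boar 69 and at 1.81 without the liver library of boar 69 (exact adjusted p = 0.0476 for each), and was 0.91 without the liver library of boar 71.

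The 250 bases before C3, the member with the largest difference, are shown for comparison with the C1q starts (chr2:72431220-72431469, plus strand, 5′ to 3′).
C3: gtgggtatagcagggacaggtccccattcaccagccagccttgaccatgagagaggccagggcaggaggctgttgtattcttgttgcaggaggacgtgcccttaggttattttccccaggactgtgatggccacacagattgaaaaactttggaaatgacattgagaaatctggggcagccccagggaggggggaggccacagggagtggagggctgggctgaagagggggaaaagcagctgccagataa

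This window held 1 CpG site, the fewest among the members together with MASP1, while the window before MASP2 held 16 and that before C2 held 11. None of the 7 motifs searched had a match before C3. A match of TTCNNNGAA stood before MASP2 and one of GAGGAA before MASP1, and no match stood before C2. Methylation at these sites was not analysed here.

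The make-up of the measured members differed between the tissues. Per exon length, the 3 C1q genes made up 95.1% ± 1.33 (SD, n = 5) of the summed level in backfat and 14.8% ± 5.29 in liver. C3 made up 2.42% ± 0.89 in backfat and 79.0% ± 5.72 in liver. The remaining share of C2, CFB, MASP1 and MASP2 was 2.50% in backfat and 6.23% in liver. C1q was the larger part in every backfat library and C3 in every liver library.

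**Figure D4:**
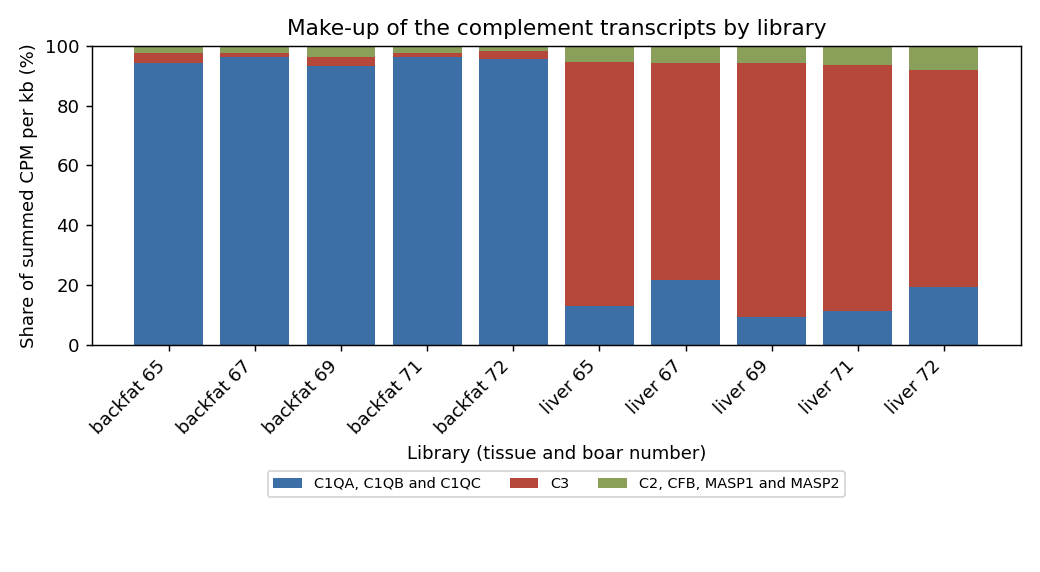
Share of the summed CPM per kb of exon (%) taken by the C1q genes, by C3 and by C2, CFB, MASP1 and MASP2 in each of the 10 libraries. The C1q genes fill at least 93.2% of each backfat bar and C3 at least 72.8% of each liver bar.

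Per kb of counted exon, the order of mean levels in backfat was C1QC (97.8 CPM per kb), C1QB (54.0), C1QA (52.1), C3 (5.26), MASP2 (2.60), C2 (2.11), MASP1 (0.302) and CFB (0.191). Neighbours did not overlap from C1QA to C3 and from C2 to MASP1, and the other neighbours in this order did. In liver the order was C3 (2684 CPM per kb), C1QC (206), C1QA (127), C1QB (111), MASP2 (107), CFB (57.6), C2 (34.8) and MASP1 (4.70), where only C3 and C1QC, and C2 and MASP1, did not overlap. C3 thus moved from the fourth place to the first, and CFB was the lowest in backfat.

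Part of this order rests on the gene models, because the exons counted for C1QB, CFB and C1QA were 2.37, 2.28 and 1.42 times as long as those of RefSeq and those of the other members at most 1.16 times. Per kb of RefSeq exon, C1QB stood above C1QC and C1QA in both tissues, with 128, 106 and 74.0 CPM per kb in backfat and 264, 223 and 181 in liver. MASP1 was then the lowest member in backfat, at 0.327 CPM per kb against 0.435 for CFB, and the liver mean of CFB (131) stood above that of MASP2 (123), although CFB was above MASP2 only in boars 65 and 69 and below it in the other 3 livers. The first place of C3 in liver, at 2683 CPM per kb, did not depend on the model. The fold change of a single gene, and the tissue difference of a ratio of single genes, do not depend on the length, whereas the shares and the C1q sum over the macrophage list do (-1.25 with and -1.12 without the length).

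**Figure D5:**
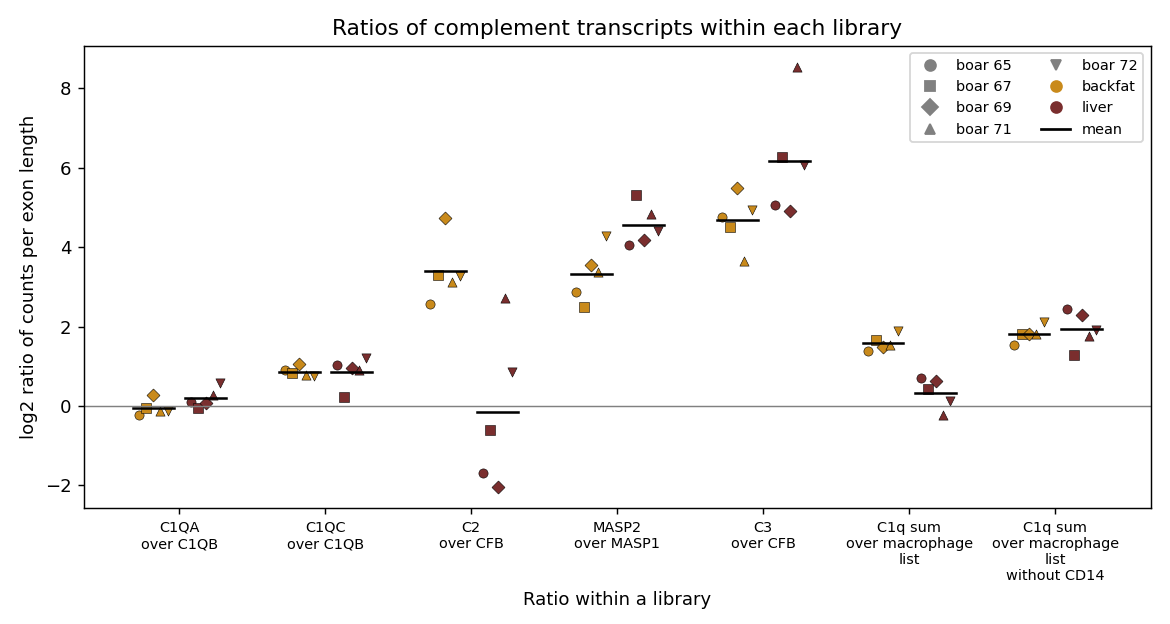
Log2 ratio of counts per exon length within each library for the 6 ratios tested and for the C1q ratio without CD14, with colour for the tissue, marker shape for the boar and a bar for the mean. C1QA over C1QB and C1QC over C1QB overlap between the tissues. C2 over CFB is lower in liver in 5 of 5 boars, with the liver of boar 71 inside the backfat range. C1q over the macrophage list separates the tissues only while CD14 is in the list.

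The rest of the pathway was counted from a list of 37 other complement genes, of which 26 had a row and all 26 were tested. In liver 15 of the 26 were called higher and in backfat 1, against 11.2% and 11.1% of all genes tested. The median log2 fold change of liver over backfat was 4.98 for the 26 genes, against a median near 0 over all genes tested (-0.00014). Genes of the list without a row included FCN1, MBL1, C4B, CD46, CD55, CD59, C5AR1, CR1, CR2 and ITGAX.

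Among the recognition and early factors, 3 of 7 were called higher in liver and 1 in backfat. MBL2, the mannose-binding lectin that carries the MASP proteases, had the largest difference of this group at 12.68 on the log2 scale (edgeR adjusted p = 7.30e-06), with 3383 to 38653 counts per liver library. In backfat it had 17 counts in the library of boar 69 and 0 in the other 4. Against those 4 alone, with 3 counts over them set as an upper bound for 0, the liver mean was 32948-fold higher. This figure leaves out the spread between libraries. That mean of 369 CPM rests partly on boar 71, at 1221 CPM against 91.3 to 233 CPM in the other livers. With all libraries the fitted difference was 6583-fold. COLEC10, a lectin of the same family, differed by 9.84 (edgeR adjusted p = 5.24e-10). CFD, which encodes the factor D that cuts factor B and is known as the adipocyte product adipsin, was the gene called in backfat, where it had 335 to 550 CPM against 47.0 to 208 CPM in liver.

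CFD changed by -2.09 on the log2 scale of liver over backfat (SE 0.39, edgeR adjusted p = 0.000616), so it stood just past the fold threshold. Without the backfat library of boar 69, and also without the liver library of boar 72, no other complement gene was called higher in backfat. FCN2 was also higher in backfat by the adjusted p alone, at -1.36 (edgeR adjusted p = 0.00104), and C4A, the partner of C2 in the convertase, was higher in liver by the adjusted p alone, at 1.76 (edgeR adjusted p = 0.000381). The C4A value is uncertain where reads are shared with a near-identical C4 copy.

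All 7 terminal factors, which form the membrane attack complex, were called higher in liver, with a median log2 fold change of 7.95. The largest with all libraries were C8A at 12.03 (edgeR adjusted p = 1.37e-05) and C6 at 11.97 (edgeR adjusted p = 8.23e-08), followed closely by C8B at 11.91 (edgeR adjusted p = 8.79e-06). The backfat of boar 69 held 57 of the 59 backfat counts of C8A, 50 of the 52 of C8B and 27 of the 41 of C6. Without that library the fitted values were 16.31 for C8A, 16.004 for C8B and 13.23 for C6, so C8B then stood above C6, and the first 2 rest on 2 backfat counts each. Of the 6 regulators with a row, 5 were called higher in liver, with the largest differences in VTN, which encodes vitronectin (10.71, edgeR adjusted p = 4.05e-07), and C4BPB, a chain of C4-binding protein (10.08, edgeR adjusted p = 6.57e-08).

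None of the 6 receptors with a row was called in either direction. By the adjusted p alone, VSIG4, a receptor for C3b on resident macrophages, was higher in liver at 1.80 (edgeR adjusted p = 5.52e-06), and CD93, an endothelial protein once described as a C1q receptor, was higher in backfat at -1.99 (edgeR adjusted p = 6.51e-06). The other genes that passed by the adjusted p alone were CFP, which encodes properdin (1.78, edgeR adjusted p = 7.44e-07), and C4BPA, a chain of C4-binding protein (1.33, edgeR adjusted p = 0.00327), both higher in liver. The other 4 receptors (C3AR1, C5AR2, ITGAM and ITGB2) did not pass the adjusted p. VSIG4 had 5.84 to 11.3 CPM in backfat and 28.8 to 37.7 CPM in liver, a 3.47-fold difference in the same direction as that of the C1q genes.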

How the data were processed

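Only RNA-seq was used for the values. The authors checked reads with FastQC, trimmed them with Trimmomatic, aligned them with HISAT2 to Sscrofa11.1 and counted them per gene with featureCounts 2.0.1 on Ensembl release 99; the deposited values are raw counts per gene, with the summed exon length beside them. The strand setting was not given in the sources used here. Depth was 43820042 to 61772737 counts per library. The WGBS files hold calls by read position without a genomic place and were not used.

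The members and all lists were chosen with earlier results of these data known. In R 4.3.3, genes were filtered by filterByExpr (16275 left), scaled by TMM and tested with edgeR 4.0.16 (quasi-likelihood, tissue as the only term), with Benjamini-Hochberg adjustment over all of them. On simulated counts with 200 changed genes among those tested (log2 fold change 3), edgeR called 195 and 3 others. Columns gave groups of 5. All members were named, with the untested genes, except for an item that is not reported here, and of the other complement genes the 2 with the largest change per group. C8B, the genes called in backfat and those that passed the adjusted p alone are also named, a choice made after their values were seen. Ratios used an offset of 0.5 counts and exact permutation tests (scipy 1.17.1), adjusted over 6; a ratio of C1R to C1S was planned but not possible. Same-numbered columns were taken as the same boar, which no label states. Their deviations from the tissue means correlated with r of 0.0359 to 0.226. In 3 of 5 backfat libraries the same-numbered liver correlated best. The methods of the study name 5 boars, while the labels do not say that replicates come from separate animals. The p-values therefore measure the spread between these libraries. Alternatives were other scalings, DESeq2 1.42.0, limma 3.58.1 (voom), glmTreat, other filters, the boar as a block, and libraries left out. Loci and sequences are from RefSeq's Sscrofa11.1, where all 10 symbols matched.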

Additional observations from a re-analysis of the deposited data

Results flagged for a closer look

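In 1 of 16 groups (8 genes in 2 tissues) a library lay far from the other 4. MASP1 in the liver of boar 67 had 24.0 CPM, where the other livers had 71.8 to 76.6 CPM. Chance flags about 1 in 20 such groups. The same library had the lowest C1QC, C2, C3 and MASP2 of the livers, the lowest hepatocyte sum and the highest mitochondrial share of them, and their part in the MASP1 value was not tested. Without it the log2 fold change of MASP1 was 4.20 and the gene was still called.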

How the results depend on the processing

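Under all 20 alternatives to each of the 8 members' log2 fold changes (scalings, DESeq2, limma-voom, glmTreat, filters, the boar as a replicate block and libraries left out) direction and call stayed the same, and 5 members were called each time. The block changed no call of a member or of the 26 other complement genes, and over all genes tested it called 3670 against 3633. With library size alone 1 of 3 C1q genes passed the adjusted p. Of the other complement genes, 8 instead of 15 were called higher in liver when 10 counts were required of each library, where fewer genes were tested. The count called higher in backfat was 3 with library size alone, 2 with no filter, 0 with glmTreat and 0 to 2 with single libraries left out. With the boar as a block, the sign-flip test called none of the 3 ratios called without pairing (C2 over CFB -3.56, MASP2 over MASP1 1.25, C1q over macrophage markers -1.25, adjusted p 0.125 each), and its smallest p is 0.0625, although each differed in the same direction in 5 of 5 boars. Leaving out 1 library gave 0.15 to 0.32 for C1QA over C1QB, -0.087 to 0.16 for C1QC over C1QB, -4.27 to -3.08 for C2 over CFB, 1.04 to 1.49 for MASP2 over MASP1, 0.91 to 1.81 for C3 over CFB and -1.35 to -1.12 for C1q over macrophage markers. Without the backfat library of boar 69 and the liver library of boar 67 together, C1QC over C1QB turned to 0.20 and C2 over CFB (-3.11), MASP2 over MASP1 (1.12) and C1q over macrophage markers (-1.30) were no longer called, with fewer samples. Without CD14 the last ratio turned to 0.12. Genes with few counts in backfat, such as C8A and MBL2, have folds that rest on the backfat library of boar 69.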

Other observations

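For C1QA and C3, the genes with the most similar pattern were those with the smallest root mean square difference of log2(CPM + 0.5), centred on each gene's mean over the 10 libraries, among 11591 genes with a symbol and at least 1 CPM. Nearest to C1QA were SPACA1 (0.211), TTC7A (0.215) and TGDS (0.220). Nearest to C3 were CYP1A2 (0.509), DMGDH (0.524) and F12 (0.553). That these were higher in liver follows from the choice, since C3 was. CFB, added after its values were seen, had no gene as near, and the nearest were NAGS (0.779), ANGPTL8 (0.790) and CYP1A1 (0.795).

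Fibroblast markers summed to between 46185 and 84623 CPM in backfat and to between 755 and 1285 CPM in liver, and endothelial markers to between 532 and 978 CPM against 91.9 to 139 CPM. Lymphocyte markers were low in both tissues, at most 50.5 CPM. Red cell markers reached 1822 CPM in the liver of boar 67 and at most 499 CPM elsewhere. Of the 4 mesothelial markers 1 had a row, with at most 0.136 CPM in any library.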
